A study of Homo sapiens with 12 samples.

Results

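SRF silencing in the presence of the synthetic androgen R1881 was described from 6 of the 12 arrays of this series: 3 arrays of LNCaP cells given siRNA against SRF and then R1881, and 3 of LNCaP cells given control siRNA and then R1881. LNCaP is an established androgen-sensitive human prostate adenocarcinoma line. Every culture was held without androgen for 48 h, transfected with 1 of the siRNAs, and 42 h later given either 5 nM R1881 or its ethanol vehicle for 48 h. The 6 arrays of the vehicle cultures (3 with control siRNA, 3 with SRF siRNA) entered the fit and are used as a second measurement of the same silencing. The siRNA sequences and the number of siRNAs against SRF are not given in the sources used here. Effects of SRF loss and other effects of the siRNA therefore cannot be told apart. Silencing here means treatment with the SRF siRNA. The labels call the arrays biological replicates without saying whether separate cultures were used, and p-values therefore cover only the spread between these arrays.

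The genes described were the 10265 that had a probe set with 1 platform gene symbol and a log2 signal above 4 on at least 3 of the 12 arrays, out of 19775 genes with such a symbol on the array. Some genes would not have passed this filter without 1 group, since fewer than 3 of the other 9 arrays were above 4: 91 of the 10265 without the silenced R1881 arrays, and 132 without the silenced vehicle arrays. For the control groups the numbers were 92 in R1881 and 90 in vehicle. The brightest probe set stood for each gene. A gene was called when its limma p-value, adjusted by the Benjamini-Hochberg method over all 10265 genes, was under 0.05. Changes are log2 differences, SRF siRNA minus control siRNA, with the moderated standard error (SE) of the fit after the ± sign. Levels are log2 GCRMA signals with the standard deviation (SD) of 3 arrays after the ± sign.

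Serum response factor (SRF) is a MADS-box transcription factor that binds the CArG box, a short A- and T-rich sequence flanked by CC and GG. It acts with cofactors of the MRTF family, which are held by free actin and bring in genes of the actin cytoskeleton, and with ternary complex factors such as ELK1 and ELK4, which are ERK substrates and bring in immediate-early genes. In prostate cells androgen induces secreted proteases such as prostate-specific antigen (KLK3) and the machinery of secretion, and represses a further set of genes.

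Within each group the 3 R1881 arrays correlated with each other at Pearson r of 0.9964 to 0.9981 over all 54675 probe sets of the array, dim ones included. Between the groups r was 0.9836 to 0.9865. All 12 LNCaP identity genes lay above log2 4 in both groups. Of 20 markers of basal or mesenchymal lines 4 were above 4 in both groups, with a summed linear signal of 774 to 868 in control and 1782 to 2022 in silenced cells. Fibroblast markers above 4 numbered 1 of 15 in control and 3 of 15 in silenced cells (summed signal 166 to 188 and 269 to 291), and leukocyte markers 0 and 1 of 13 (74.9 to 77.8 and 80.7 to 97.9), the 1 being LYZ. The third silenced array differed from the others: the median over the genes tested was 7.86, against 7.72 and 7.77 on the other silenced arrays and 7.69 to 7.70 on the control arrays. On that array the 3-prime minus 5-prime difference of the GAPDH control probe sets, a measure of RNA integrity, was 0.641, against 0.368 and 0.454 on the other silenced arrays and 0.445 to 0.491 in control (exact two-sided permutation p = 0.8 between the groups). The same measure for ACTB was 1.581, 1.648 and 2.211 with SRF siRNA and 1.484 to 1.523 with control siRNA, without overlap (exact permutation p = 0.1, which is as low as groups of 3 arrays can go), and its part in the results was not tested. Because these are bulk samples, fewer cells of a kind and less RNA per cell cannot be told apart.

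The targeted gene matched the labels. The SRF signal on the R1881 arrays was 6.5, 6.25 and 6.16 with control siRNA and 4.89, 4.98 and 4.73 with SRF siRNA, so the groups did not overlap. SRF fell by 1.44 on the log2 scale, with an SE of 0.14, to 36.9% of control (adjusted p = 3.31e-06 in limma). Without androgen it was -1.34 ± 0.14, and the silencing effects differed by -0.10 ± 0.20 between R1881 and vehicle, which was not called (limma adjusted p = 0.768). The other probe set for SRF read 2.73 and 2.64 in R1881, near the background of the arrays. Of the 6 cofactors tested, MRTFB fell from 8.72 ± 0.12 to 7.75 ± 0.12, a change of -0.97 ± 0.09 (-0.94 ± 0.09 in vehicle). ELK4 rose by 0.47 ± 0.07, but not on its most variable probe set. MRTFA (0.16 ± 0.18), ELK1 (0.11 ± 0.08), ELK3 (0.27 ± 0.12) and SCAI (-0.19 ± 0.24), which restrains the MRTFs, were not called.

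**Figure D1:**
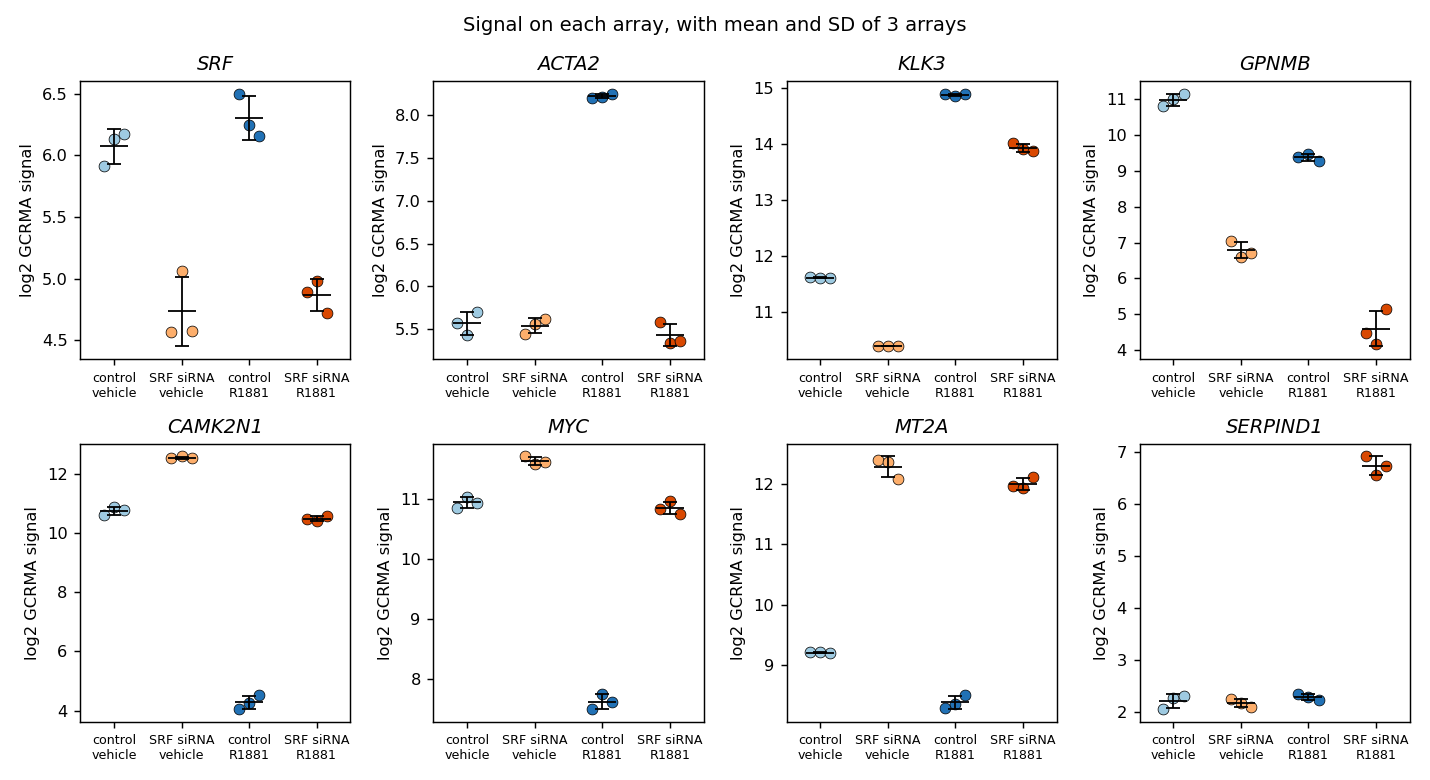
Log2 GCRMA signal (vertical axis) of 8 genes on each of the 12 arrays, by siRNA and treatment; points are arrays and bars show the mean and SD of 3 arrays. SRF was lower with SRF siRNA with and without R1881, ACTA2 was highest in control cells with R1881, at 8.22 ± 0.03, and SERPIND1 was above 6 only on the silenced R1881 arrays. SERPIND1 passed the filter only through those arrays.

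Under R1881, genes moved in both directions across the transcriptome after SRF siRNA. Of 10265 genes, 3452 (33.6%) were called higher and 2606 (25.4%) lower. Counts for the gene lists below are to be read against these shares. At least 2-fold changes were called for 689 higher (6.71%) and 503 lower genes (4.90%), and at least 4-fold changes for 112 and 77. The median change was 0.06 over all genes (quartiles -0.27 and 0.41), and the median size of a called change was 0.58. The balance of directions depended on the scaling: with the arrays shifted to the same median over the genes tested, 2898 were higher and 3168 lower (561 and 619 at least 2-fold), which takes the share of higher genes among those called from 57.0% to 47.8%. Without the third silenced array, 3036 genes were higher and 2559 lower (639 and 548 at least 2-fold).

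**Figure D2:**
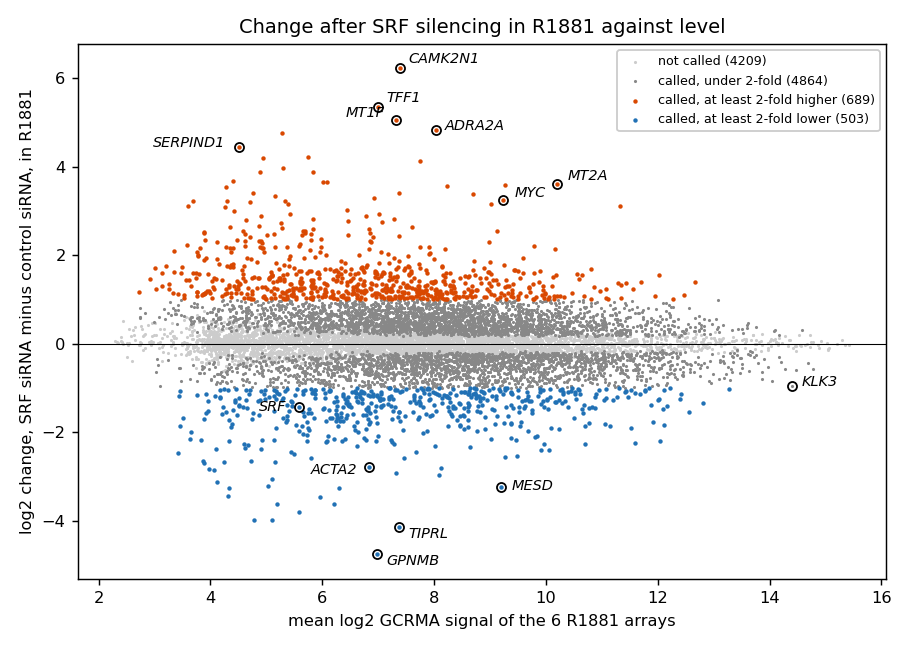
Log2 change after SRF silencing in R1881 (vertical axis) against the mean log2 signal of the 6 R1881 arrays (horizontal axis) for 10265 genes, with 689 genes called at least 2-fold higher in orange and 503 called at least 2-fold lower in blue. CAMK2N1 had the highest change, 6.22, and GPNMB the lowest, -4.77.

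The deepest fall was that of GPNMB, a transmembrane glycoprotein. Its signal was 9.37, 9.45 and 9.28 with control siRNA and 4.48, 4.18 and 5.14 with SRF siRNA, a change of -4.77 ± 0.20, or 3.68% of control (limma adjusted p = 4.05e-09). Its groups lay far apart, and it also fell in vehicle (-4.19 ± 0.20). TIPRL, a regulator of protein phosphatases of the PP2A type, read 9.46, 9.49 and 9.37 with control siRNA and 5.43, 5.41 and 5.06 with SRF siRNA and changed by -4.14 ± 0.23. The other genes among the 15 largest falls changed by -3.98 to -3.06: the secreted protein CRISP3, the long noncoding RNAs LINC00844 and LINC00161, the neuronal membrane protein SLITRK6, the water channel AQP11, the prostaglandin F receptor PTGFR, HOPX (a homeodomain-only protein known to hold back SRF), the anion exchanger SLC26A3, the interferon-induced GTPases GBP1 and GBP2, the ER chaperone MESD, PALMD and the dehydrogenase DHRS2. For 9 of these 15 a group mean was under 4, near the background of the arrays, so the size of the fold depends on how GCRMA estimated background. Of these 15, at least GBP1 and DHRS2 would not have passed the filter without the control R1881 arrays, where they were high.

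Among genes whose 2 group means were both above 7, MESD, which helps LDL-receptor family proteins fold, fell most: 10.80, 10.72 and 10.89 with control siRNA and 7.41, 7.62 and 7.68 with SRF siRNA, a change of -3.23 ± 0.10 (limma adjusted p = 3.12e-10). The groups did not overlap, which was a condition for naming it here. Next came TMEM134 (-2.57 ± 0.09), the ceramide synthase CERS6 (-2.54 ± 0.11), the secreted zinc-alpha-2-glycoprotein AZGP1 (-2.42 ± 0.16) and CUL4B, a scaffold of ubiquitin ligases (-2.40 ± 0.14). The antisense transcript ICA1-AS1 changed by -2.35 ± 0.11, though strand was not checked for this probe set. Further falls were those of the arylamine acetyltransferase NAT1 (-2.28), the Golgi GTPase ARL1 (-2.27), the kinase STK39 (-2.26), the ER cochaperone DNAJC3 (-2.17) and SRPRA, the receptor for the signal recognition particle (-2.15).

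The largest rise was that of CAMK2N1, an inhibitor of calcium/calmodulin-dependent kinase II. It read 4.07, 4.24 and 4.51 with control siRNA and 10.47, 10.43 and 10.60 with SRF siRNA, a change of 6.22 ± 0.11 (limma adjusted p = 9.94e-12). The silenced R1881 arrays lay close to the control vehicle arrays, which had a mean of 10.76 ± 0.14. The trefoil peptide TFF1 read 4.21, 4.59 and 4.17 with control siRNA and 9.66, 9.39 and 9.93 with SRF siRNA, a change of 5.34 ± 0.24, and the alpha-2A adrenergic receptor ADRA2A read 5.57, 5.82 and 5.48 with control siRNA and 10.46, 10.35 and 10.52 with SRF siRNA, a change of 4.82 ± 0.09. In neither did the groups overlap, which was a condition for naming them here. The other genes of the 15 largest rises were the metallothioneins MT1F (5.05) and MT1G (4.14), the membrane metalloproteinase MMP16 (4.75), heparin cofactor II, SERPIND1 (4.45), the ribonucleotide reductase subunit RRM2 (4.21), the mitotic genes NUSAP1 (4.20), PTTG1 (3.87) and PBK (3.67), the secreted phospholipase PLA2G2A (3.96), SERHL2 (3.89), the taurine transporter SLC6A6 (3.66) and SERPINE2 (3.64). A group mean was under 4 for 8 of these 15. Of these 15, at least SERPIND1 passed the filter only through the silenced R1881 arrays, where it was high.

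With both means above 7, the rises were led by metallothioneins MT2A, MT1X and MT1HL1 and by MYC, a transcription factor that drives growth genes. MYC read 7.5, 7.75 and 7.61 with control siRNA and 10.83, 10.97 and 10.76 with SRF siRNA, a change of 3.24 ± 0.09, or 9.42-fold (limma adjusted p = 1.74e-10). Its silenced R1881 level, 10.86 ± 0.11, stood beside 10.95 ± 0.10 in control cells without androgen. PRAC1, a nuclear protein of prostate and hindgut, read 7.37, 7.41 and 7.55 with control siRNA and 10.53, 10.63 and 10.65 with SRF siRNA and changed by 3.16 ± 0.07. The calcium-binding protein S100P rose by 3.11 ± 0.13, the CDK-binding protein CKS2 by 2.54 ± 0.09, the chromatin remodeller SMARCA5 by 2.30 ± 0.08, the helix-loop-helix inhibitor ID1 by 2.21 ± 0.13, the metalloproteinase inhibitor TIMP2 by 2.14 ± 0.11, the COPII subunit SEC23A by 2.14 ± 0.07 and the semaphorin coreceptor NRP1 by 1.93 ± 0.09.

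Of the 26 actin and contractile genes known as SRF-MRTF targets, 4 rose, 18 fell and 4 were not called, with a median change of -0.40 against 0.06 over all genes. The smooth muscle actin ACTA2 was lowest. It read 8.2, 8.22 and 8.25 with control siRNA and 5.58, 5.34 and 5.37 with SRF siRNA, a change of -2.79 ± 0.09, or 14.4% of control (limma adjusted p = 5.69e-10). The silenced arrays stood at the level of the control vehicle arrays (5.57 ± 0.14), and in vehicle ACTA2 was not called (-0.03 ± 0.09). ACTR3, a subunit of the Arp2/3 complex that nucleates branched actin, read 12.66, 12.66 and 12.64 with control siRNA and 11.43, 11.39 and 11.37 with SRF siRNA and changed by -1.26 ± 0.06. The matricellular protein CCN1 changed by -1.25 ± 0.11 and calponin CNN2 read 7.67, 7.55 and 7.53 with control siRNA and 6.32, 6.47 and 6.38 with SRF siRNA, a change of -1.19 ± 0.08. Both ended near their control vehicle levels of 6.13 ± 0.24 and 6.44 ± 0.07. The focal adhesion protein ZYX fell by 0.85 ± 0.10 on the log2 scale.

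Other members, named here after their values were seen, were the actin cross-linker LIMA1 (-1.10 ± 0.07), the tropomyosins TPM1 (-0.87 ± 0.08) and TPM4 (-0.39 ± 0.10), the actin filament binders CALD1 (-0.71 ± 0.08) and VCL (-0.58 ± 0.08), beta-actin ACTB (-0.56 ± 0.11) and the actin-severing protein DSTN (-0.55 ± 0.10). The 4 that rose were TAGLN2 (1.14 ± 0.07), TAGLN (0.50 ± 0.19), MICAL2 (0.45 ± 0.11) and profilin PFN1 (0.22 ± 0.07). Not called were the actinin ACTN1 (-0.02 ± 0.09), the myosin kinase MYLK (0.30 ± 0.21), CORO1C (-0.22 ± 0.10) and PDLIM7 (-0.12 ± 0.14). ACTB is also the transcript whose 3-prime minus 5-prime difference was higher in silenced cells.

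An exact CArG box, CC, then 6 bases that are each A or T, then GG, was searched in the windows from 250 bases before to 50 bases after the start sites in the RefSeq table (GRCh38.p14). This sequence is its own reverse complement in form, so 1 search covers both strands. Of the list members matched, 4 of 23 held it: CNN2 and TPM4, which fell, and ACTN1 and MYLK, which were not called. The windows of the pair that fell are shown in full, 5′ to 3′ with the box in capitals, a choice made on their change. Those of ACTN1 and MYLK are not shown.
CNN2 (chr19:1026358-1026657, plus strand): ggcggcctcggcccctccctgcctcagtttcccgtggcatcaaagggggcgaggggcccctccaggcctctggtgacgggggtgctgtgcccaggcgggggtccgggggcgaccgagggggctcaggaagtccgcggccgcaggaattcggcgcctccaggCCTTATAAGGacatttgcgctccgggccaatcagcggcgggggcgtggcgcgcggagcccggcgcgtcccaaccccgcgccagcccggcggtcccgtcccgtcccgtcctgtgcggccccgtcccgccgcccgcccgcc
TPM4 (chr19:16067288-16067587, plus strand): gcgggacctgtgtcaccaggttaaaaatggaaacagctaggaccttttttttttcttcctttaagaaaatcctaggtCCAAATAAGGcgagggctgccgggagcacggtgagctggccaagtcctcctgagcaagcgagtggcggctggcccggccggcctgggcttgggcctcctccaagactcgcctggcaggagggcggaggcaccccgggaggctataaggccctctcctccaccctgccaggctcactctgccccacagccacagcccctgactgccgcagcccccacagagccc
Counted from the start site, the box begins at base -89 in CNN2 and at base -173 in TPM4. SRF itself holds 2 such boxes. A 30-base stretch around 1 of them is shown for SRF and for 5 further genes called at least 2-fold lower, chosen after their values were seen.
SRF (chr6:43171229-43171258, plus strand): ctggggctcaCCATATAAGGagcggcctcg
LPP (chr3:188212519-188212548, plus strand): gcctgcttctCCATATTTGGaaatgtttac
LEF1 (chr4:108166376-108166405, minus strand): acctttttttCCTTAAATGGcatctttcta
CXCR4 (chr2:136117916-136117945, minus strand): tacccgtactCCAAAAAAGGgtcaccgaaa
CUL4B (chrX:120560037-120560066, minus strand): tccataatcaCCTAATAAGGatttgacact
GBP1 (chr1:89065355-89065384, minus strand): tccactaattCCATTTATGGtagtggagtc
These matches are letters in a window and do not show that SRF binds there.

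Among the 8514 tested genes with a window in the table, 125 (1.47%) held an exact box, close to the 1.6% of all 27305 genes in the table. The share was 1.55% of the 2187 genes called lower, 1.43% of the 2867 called higher and 1.45% of the 3460 not called. Among genes called at least 2-fold lower it was 13 of 433, or 3% (exact 95% Clopper-Pearson interval 1.61% to 5.08%, counting error only), and among those at least 2-fold higher 5 of 535, or 0.935%. Genes with several start sites have more windows: the mean was 1.57 windows per gene in the 2-fold lower set and 1.46 over the genes tested. The 13 were GBP1, CUL4B, the chemokine receptor CXCR4, the WNT effector LEF1, the focal adhesion protein LPP (-1.45 ± 0.09), SRF, CNN2, CBLL1-AS1, ACSM1, H2BC21, CAMTA2, and the neighbours PRKAB2 and CHD1L, which share 1 site. The share and its interval include SRF, which the siRNA targets, and count the 2 neighbours separately. No test was run against the share over all genes, and the interval does not stand for one.

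The immediate-early and ERK feedback genes, which ternary complex factors control, did not move one way: of 19, 9 rose, 6 fell and 4 were not called (median 0.29). Besides MYC, IER5 rose from 5.07 ± 0.47 to 7.08 ± 0.10, a change of 2.01 ± 0.19. The ERK phosphatase DUSP5 read 6.54, 6.33 and 6.47 with control siRNA and 8.29, 8.24 and 8.39 with SRF siRNA and changed by 1.86 ± 0.20, and JUNB, an AP-1 subunit, by 1.31 ± 0.08. Those that fell included PHLDA1 (-1.24 ± 0.11), the stress factor ATF3 (-0.70 ± 0.12), NR4A1 (-0.66 ± 0.21) and JUN (-0.39 ± 0.08).

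Among 17 integrin and focal adhesion genes, 4 rose, 7 fell and 6 were not called (median -0.12), where over all genes 33.6% rose and 25.4% fell. Integrin alpha-V, ITGAV, read 13.38, 13.32 and 13.30 with control siRNA and 11.54, 11.90 and 11.89 with SRF siRNA, a change of -1.55 ± 0.11. PARVA, which links integrins to actin through ILK, changed by -1.16 ± 0.11, ZYX by -0.85 ± 0.10 and VASP, a promoter of actin elongation, by 0.83 ± 0.12. Of 22 luminal keratin and junction genes, 13 rose, 5 fell and 4 were not called (median 0.24). The tight junction genes CGN (2.13 ± 0.13), OCLN (0.81 ± 0.07) and CLDN4 (0.69 ± 0.09) rose, and CLDN8 (-1.65 ± 0.07) fell. The keratins KRT8 (-0.54 ± 0.08) and KRT18 (-0.65 ± 0.07) fell, both of them markers of luminal cells. With the arrays shifted to the same median, 9 of the keratin and junction genes rose and 5 fell.

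All 4 basal or mesenchymal markers that could be tested were called higher, of 20 on the array; TWIST1 lost its call without the third control R1881 array (0.335, limma adjusted p = 0.0508). The transcription factor SNAI2 read 5.77, 5.67 and 5.65 with control siRNA and 8.44, 8.46 and 8.43 with SRF siRNA, a change of 2.75 ± 0.33 (limma adjusted p = 1.85e-05). Vimentin, VIM, read 6.34, 6.34 and 6.26 with control siRNA and 8.26, 8.05 and 8.42 with SRF siRNA, a change of 1.93 ± 0.09. Fibronectin, FN1, changed by 1.24 ± 0.10 and TWIST1 by 0.40 ± 0.12. The other 16 markers of this list, among them CDH2, ZEB1, KRT5 and KRT14, stayed at or under log2 4 in both groups. Of the fibroblast markers, the collagen genes COL5A2 (3.34 ± 0.12) and COL3A1 (1.11 ± 0.18, not called with values under 4 set to 4) rose and COL1A1 was not called (-0.33 ± 0.15), with 12 of 15 markers at or under 4 in the silenced cells. The leukocyte markers, PTPRC and CD3E among them, were at or under 4 in both groups except LYZ.

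Androgen-induced genes were mostly lower after silencing under R1881. Of 49, 6 rose, 30 fell and 13 were not called, and the median change was -0.53. KLK3 read 14.89, 14.86 and 14.89 with control siRNA and 14.01, 13.91 and 13.88 with SRF siRNA, a change of -0.95 ± 0.06, or 51.9% of control (limma adjusted p = 1.06e-07). It was still 3.54 above the silenced vehicle arrays on the log2 scale. Coagulation factor V, F5, read 8.81, 8.75 and 8.80 with control siRNA and 5.86, 5.31 and 6.42 with SRF siRNA and changed by -2.93 ± 0.26 and AZGP1 by -2.42 ± 0.16. The other kallikreins KLK2 (-0.94 ± 0.08) and KLK4 (-1.29 ± 0.10), the immunophilin FKBP5 (-0.70 ± 0.08) and the transporter SLC45A3 (-0.93 ± 0.09) also fell.

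Further members of that list, named after their values were seen, were the elongation factor partner EAF2 (-2.10 ± 0.15), the condensin subunit NCAPD3 (-1.90 ± 0.07), the vesicle GTPase RAB27A (-1.93 ± 0.14), the kinase SGK1 (-1.71 ± 0.19) and TMPRSS2, a membrane serine protease (-0.53 ± 0.07). Those that rose were SNAI2, MAF (1.08 ± 0.07), ST6GALNAC1 (1.08 ± 0.13), MYBPC1 (1.04 ± 0.15), TSC22D3 (0.93 ± 0.09) and ERRFI1 (0.81 ± 0.09). STEAP1 (-0.01 ± 0.07), UAP1 (-0.11 ± 0.06) and BMPR1B (-0.06 ± 0.10) were among the 13 not called.

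Prostate secretory products and membrane proteases, which overlap with that list, gave 4 rises and 7 falls of 14 (median -0.37). PIP, 1 of the 14, would not have passed the filter without the control R1881 arrays. Prostatic acid phosphatase, ACP3, went against the kallikreins: it read 10.70, 10.55 and 10.59 with control siRNA and 11.94, 11.98 and 12.00 with SRF siRNA, a change of 1.36 ± 0.07. Of 23 pioneer factors and coregulators of androgen signalling, 12 rose, 7 fell and 4 were not called (median 0.25). Cyclin D1, CCND1, rose by 1.29 ± 0.11, the lysine demethylase KDM1A by 1.19 ± 0.11 and the homeobox factor HOXB13 by 0.94 ± 0.08. The pioneer factor FOXA1 was not called (0.10 ± 0.07). Among 12 steroid-converting and inactivating enzymes, 0 rose and 6 fell: DHRS2 (-3.06 ± 0.22), SRD5A1, a 5-alpha reductase (-1.11 ± 0.12), UGT2B17, which conjugates androgens (-0.82 ± 0.12), HSD17B8 (-0.79 ± 0.08), HSD17B4 (-0.40 ± 0.09) and UGDH (-0.23 ± 0.08). DHRS2 would not have passed the filter without the control R1881 arrays, where it was high.

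Androgen-repressed genes moved the other way from the induced ones. Of 20, 12 rose, 2 fell and 6 were not called (median 0.70). With CAMK2N1 at the head, MMP16 read 2.40, 3.17 and 3.12 with control siRNA and 7.35, 7.73 and 7.85 with SRF siRNA, a change of 4.75 ± 0.18. PLA2G2A read 2.69, 3.27 and 4.0 with control siRNA and 7.39, 7.09 and 7.36 with SRF siRNA and changed by 3.96 ± 0.24, and the neuronal leucine-rich repeat protein LRRN1 by 3.29 ± 0.12. The silenced R1881 levels did not all return to those of control cells without androgen: LRRN1 stood at 8.56 ± 0.09 beside 10.56 ± 0.04, and MMP16 at 7.65 ± 0.26 beside 8.97 ± 0.02. The 2 that fell were CXCR4 (-1.87 ± 0.13) and UGT2B17. On arrays shifted to the same median, 12 rose and 5 fell.

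Cell cycle genes were mostly higher in silenced cells under R1881. Of 51 genes of mitosis and chromosome segregation, 1, NCAPH, passed the filter only through the silenced R1881 arrays. Of the other 50, 38 rose, 3 fell and 9 were not called, with a median change of 1.16. Without the silenced vehicle arrays 14 of the 51, NCAPH among them, would not have passed the filter. All of these but NCAPH are in the count of 50. The spindle protein NUSAP1 read 2.64, 2.83 and 3.07 with control siRNA and 6.83, 7.22 and 7.07 with SRF siRNA, a change of 4.20 ± 0.12 (limma adjusted p = 2.81e-10). Securin, PTTG1, read 2.65, 3.13 and 3.06 with control siRNA and 6.5, 7.09 and 6.86 with SRF siRNA and changed by 3.87 ± 0.16. The checkpoint kinase BUB1B changed by 3.53 ± 0.17 and survivin, BIRC5, by 3.12 ± 0.14. The control R1881 arrays were at or near background for these 4, and with all values under 4 set to 4 the full list of 51 still gave 31 rises and 3 falls (median 0.75).

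Mitotic genes well above background moved alike: CKS2 (7.85 ± 0.12 to 10.39 ± 0.10), the checkpoint protein MAD2L1 (2.18 ± 0.13), CDK1 (1.13 ± 0.07) and CCNB1 (1.18 ± 0.11). The proliferation marker MKI67 was not called (-0.09 ± 0.15) and its mean was under 4 in both R1881 groups. The falls were NCAPD3, CENPN (-0.74 ± 0.09) and CKAP2 (-0.61 ± 0.11), of which NCAPD3 and CENPN are also in the androgen-induced list. Of 41 genes of S phase and nucleotide synthesis, 25 rose, 3 fell and 13 were not called (median 0.59). The 41 include MCM10, CDC45 and E2F8, which would not have passed the filter without the silenced vehicle arrays. RRM2 read 2.88, 4.08 and 3.94 with control siRNA and 7.64, 7.92 and 7.96 with SRF siRNA, a change of 4.21 ± 0.25. Thymidylate synthase, TYMS, read 5.39, 5.67 and 5.97 with control siRNA and 8.98, 9.18 and 9.05 with SRF siRNA, a change of 3.39 ± 0.13. The methylation maintenance factor UHRF1 changed by 3.40 ± 0.13 and thymidine kinase TK1 by 1.73 ± 0.23. Helicase subunits rose less, with MCM4 at 1.42 ± 0.13 and MCM7 at 0.80 ± 0.09, and RFC5 (-0.51 ± 0.08) fell. Adjusting the arrays to the same median gave 25 rises and 6 falls.

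Of 22 targets of p53, 15 rose, 5 fell and 2 were not called (median 0.63). The damage-sensing protein DDB2 read 4.20, 4.52 and 4.09 with control siRNA and 6.37, 6.44 and 6.57 with SRF siRNA, a change of 2.19 ± 0.12. ZMAT3 changed by 1.47 ± 0.11, SPATA18 by 1.36 ± 0.17, the pro-apoptotic BAX by 1.08 ± 0.15 and the CDK inhibitor CDKN1A by 1.01 ± 0.10. PMAIP1, another pro-apoptotic target, fell by 1.32 ± 0.12 on the log2 scale.

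Genes of the secretory pathway were mostly lower in silenced cells under R1881. Of 51 genes of ER translocation, N-glycosylation and vesicle coats, 3 rose, 38 fell and 10 were not called (median -0.40). The signal recognition particle receptor SRPRA read 9.99, 10.13 and 10.17 with control siRNA and 8.0, 7.97 and 7.87 with SRF siRNA, a change of -2.15 ± 0.08. The COPII cargo adaptor SEC24D read 8.22, 8.42 and 8.62 with control siRNA and 6.39, 6.59 and 6.44 with SRF siRNA, a change of -1.95 ± 0.17, and the oligosaccharyltransferase subunit OSTC changed by -1.24 ± 0.07. The subunits of the translocon and of the coats mostly fell by less, such as SEC61B (-0.66 ± 0.07), SSR3 (-1.14 ± 0.10), SURF4 (-0.81 ± 0.07) and COPG1 (-1.09 ± 0.09). The 3 that rose were SEC23A, SAR1B (1.23 ± 0.08) and COPZ1 (0.85 ± 0.08).

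Among 35 genes of ER folding, degradation and the unfolded protein response, 5 rose, 24 fell and 6 were not called (median -0.45). The cochaperone DNAJC3 read 10.45, 10.57 and 10.63 with control siRNA and 8.25, 8.48 and 8.43 with SRF siRNA, a change of -2.17 ± 0.08. DNAJB9 read 10.50, 10.45 and 10.46 with control siRNA and 8.66, 8.56 and 8.62 with SRF siRNA, a change of -1.85 ± 0.08, SDF2L1 changed by -1.73 ± 0.08 and DNAJC10, a disulfide reductase, by -1.34 ± 0.09. The stress sensor ERN1 (-1.29 ± 0.11) and the chaperone HSP90B1 (-1.11 ± 0.11) fell too, whereas the main ER chaperone HSPA5 was not called (0.06 ± 0.06) and XBP1 was slightly higher (0.19 ± 0.07). Of the amino acid stress genes under ATF4, 8 rose, 13 fell and 9 were not called, out of 30. The cystine transporter SLC7A11 (-1.63 ± 0.11), the lipoprotein receptor VLDLR (-1.25 ± 0.14) and the tryptophanyl-tRNA synthetase WARS1 (-0.96 ± 0.09) fell, and stanniocalcin STC2 (1.12 ± 0.23) rose. ATF4 itself was not called (-0.14 ± 0.07).

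Lipid synthesis was split. Of 16 genes of fatty acid synthesis, 4 rose, 10 fell and 2 were not called (median -0.38). The acyl-CoA synthetase ACSL1 (-1.05 ± 0.10), malic enzyme ME1 (-0.95 ± 0.07) and the elongase ELOVL2 (-1.06 ± 0.29) fell, and the desaturase SCD5 (1.64 ± 0.22) rose. Fatty acid synthase, FASN, read 12.74, 12.71 and 12.58 with control siRNA and 12.18, 11.97 and 12.17 with SRF siRNA, a change of -0.57 ± 0.09. For ELOVL2 the groups overlapped, and it would not have passed the filter without the control R1881 arrays. Of 21 cholesterol genes, 3 rose, 7 fell and 11 were not called (median -0.13), to be read against the 25.4% of all genes that fell. The falls were led by the desaturase SC5D (-1.27 ± 0.08) and by SCAP, the escort of the SREBP factors (-0.82 ± 0.08), with HMGCS1 (-0.65 ± 0.08) and MVD (-0.49 ± 0.17) next among the named genes; the call of HMGCS1 was lost on its most variable probe set, and that of MVD with an array left out or the stricter threshold. On arrays shifted to the same median, 11 cholesterol genes fell and 3 rose.

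Of 24 glycolysis genes, 1, SLC2A3, passed the filter only through the silenced R1881 arrays. Of the other 23, 15 rose, 3 fell and 5 were not called (median 0.44). Lactate dehydrogenase LDHA read 11.87, 11.91 and 11.98 with control siRNA and 12.99, 13.07 and 13.02 with SRF siRNA, a change of 1.11 ± 0.07. The neuronal enolase ENO2 rose by 1.58 ± 0.20 and the pyruvate dehydrogenase kinase PDK1 by 1.14 ± 0.16 (not called on its most variable probe set), while PFKFB2, a regulator of phosphofructokinase, fell from 8.70 ± 0.09 to 7.31 ± 0.11. Of 62 genes of the TCA cycle and respiratory chain, 13 rose, 16 fell and 33 were not called, with a median of -0.04 that turned to 0.02 under quantile normalization. Over all genes 33.6% rose and 25.4% fell, so the falls of this list were near that share and the rises below it. SUCLG2 (1.47 ± 0.06), IDH1 (0.99 ± 0.06) and citrate synthase CS (0.78 ± 0.08) rose and the complex I subunit NDUFB1 (-1.40 ± 0.07) fell. Of 17 polyamine genes, 5 rose, 7 fell and 5 were not called, with the rises near the share over all genes. The transporter ATP13A3 (1.99 ± 0.12), MTAP (1.48 ± 0.15) and the oxidase PAOX (1.36 ± 0.19) rose and the antizyme OAZ3 (-1.22 ± 0.07) fell.

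Interferon-response genes rose in most cases, and the guanylate-binding proteins GBP1 and GBP2 had the deepest of the 6 falls. Of 39, 24 rose, 6 fell and 9 were not called (median 0.38). IFI27 read 4.26, 4.39 and 5.03 with control siRNA and 6.95, 6.92 and 7.21 with SRF siRNA, a change of 2.47 ± 0.24, and IFITM1 read 3.28, 3.40 and 3.83 with control siRNA and 5.95, 5.82 and 5.99 with SRF siRNA, a change of 2.42 ± 0.15. GBP2 read 7.90, 7.90 and 7.99 with control siRNA and 4.77, 4.64 and 4.61 with SRF siRNA, a change of -3.26 ± 0.12, and GBP1 read 6.98, 6.45 and 6.5 with control siRNA and 3.44, 3.47 and 3.38 with SRF siRNA, a change of -3.21 ± 0.14. So members of the same list lay at the opposite ends of its range. GBP1 would not have passed the filter without the control R1881 arrays, where it was high. Of 26 NF-kappa-B targets and chemokines on the array, 13 were too dim to be tested, and RELB, CXCL8 and CCL20 passed the filter only through the silenced R1881 arrays, where they are high. Of the other 10, 5 rose, 1 fell and 4 were not called. The chemokine CCL20 read 2.66, 2.68 and 2.72 with control siRNA and 5.05, 6.33 and 6.36 with SRF siRNA, a change of 3.23 ± 0.26. Interleukin-8, CXCL8, rose by 2.63 ± 0.08 from a control level near background, the subunits RELB by 1.81 ± 0.15 and REL by 1.26 ± 0.17, and CCL5 fell by 0.74 ± 0.11 on the log2 scale.

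Of 18 serpins on the array, 12 were too dim to be tested. SERPIND1 and SERPINA3, 2 of the 6 that were tested, passed the filter only through the silenced R1881 arrays, so the values are given gene by gene, without a count or a median. SERPIND1 read 2.35, 2.29 and 2.24 with control siRNA and 6.92, 6.57 and 6.74 with SRF siRNA, a change of 4.45 ± 0.10. SERPINE2 read 4.67, 4.21 and 3.90 with control siRNA and 7.67, 8.26 and 7.77 with SRF siRNA, a change of 3.64 ± 0.30, and antichymotrypsin SERPINA3 read 2.61, 3.10 and 3.58 with control siRNA and 5.89, 6.5 and 6.53 with SRF siRNA, a change of 3.21 ± 0.21. SERPINI1 fell, by 1.29 ± 0.11 on the log2 scale.

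The metallothionein list, which holds 7 metallothioneins that bind zinc and copper, their activator MTF1 and the zinc exporter SLC30A1, rose throughout: all 9 were called higher, 8 of them at least 2-fold, with a median of 3.56. MT2A read 8.29, 8.35 and 8.51 with control siRNA and 11.96, 11.93 and 12.10 with SRF siRNA, a change of 3.61 ± 0.09, or 12.2-fold (limma adjusted p = 1.49e-10). MT1F read 4.53, 5.12 and 4.75 with control siRNA and 9.79, 9.66 and 10.10 with SRF siRNA, a change of 5.05 ± 0.15. MT1X changed by 3.59 ± 0.09, MT1G by 4.14 ± 0.20 and MTF1 by 1.59 ± 0.14. These genes are nearly identical in sequence, so signal may be shared between their probe sets and the order of the members is uncertain.

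In contrast, 44 of 51 cytosolic ribosomal protein genes were not called, 5 rose and 2 fell (median 0.03). RPS3 (0.54 ± 0.09), RPL14 (0.45 ± 0.08) and RPL10A (0.38 ± 0.09) rose, RPL14 not on its most variable probe set, and RPS6 (-0.57 ± 0.09) fell. The counts were 4 and 4 on arrays shifted to the same median and 14 and 2 after quantile normalization. Of 27 proteasome genes, 6 rose, 4 fell and 17 were not called, and 3 rose and 8 fell on arrays shifted to the same median, where the median turned from 0.07 to -0.02. The largest changes were those of PSMD6 (-0.51 ± 0.08), PSMD14 (0.42 ± 0.07), PSMC3 (-0.32 ± 0.10) and PSMA1 (0.31 ± 0.09). Of 7 gut and endocrine genes, ENO2 and REG4 (1.03 ± 0.13) rose and 5 were not called. REG4 remained near background, at 4.04 ± 0.26, and was not called with values under 4 set to 4.

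**Figure D3:**
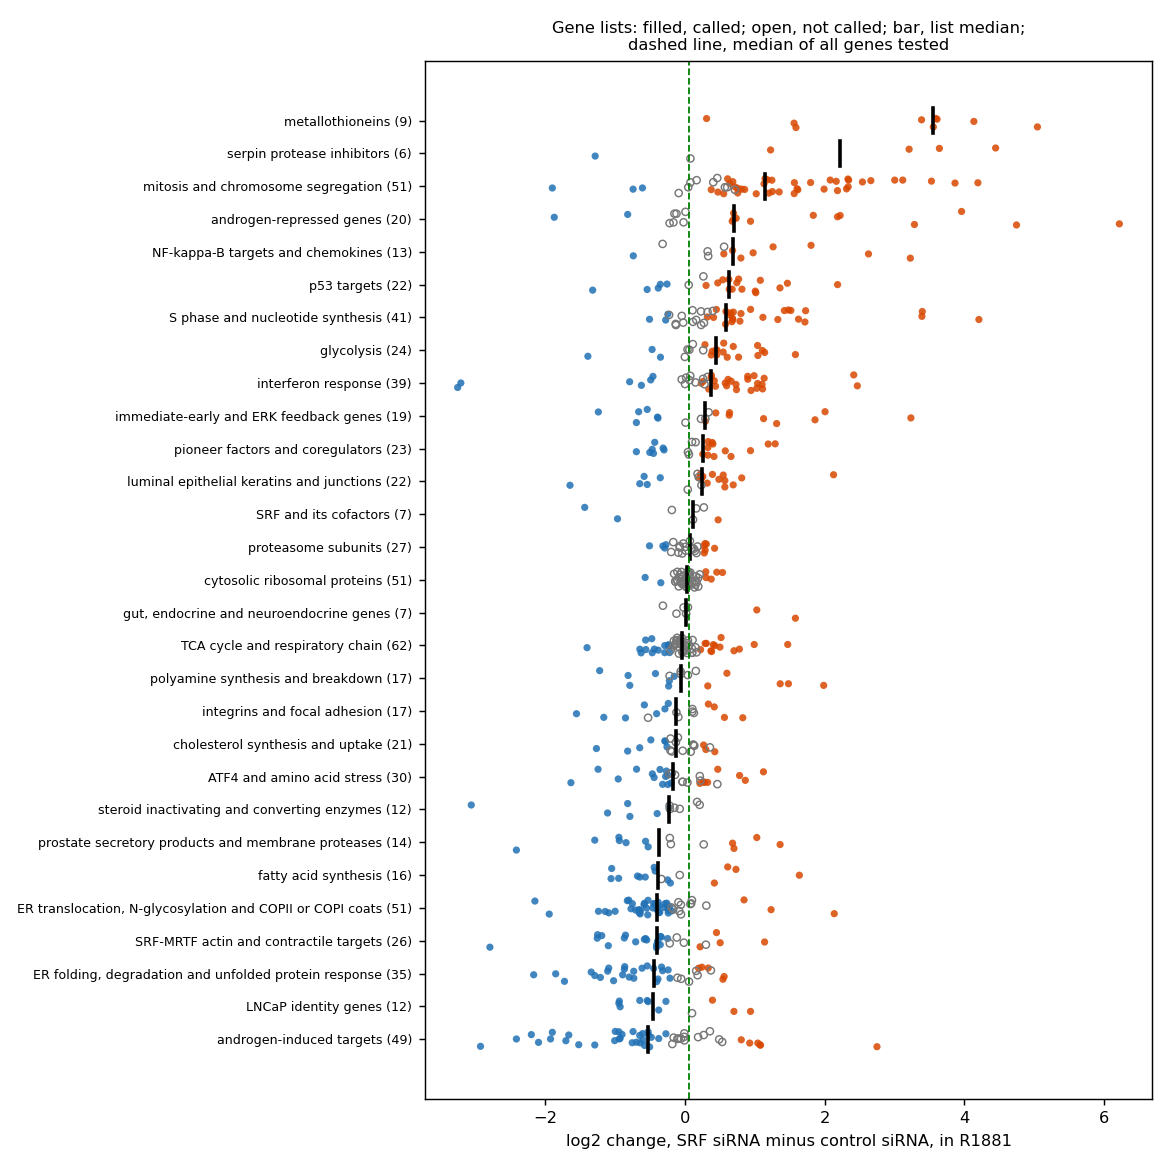
Log2 change after SRF silencing in R1881 (horizontal axis) of every tested gene in the 29 lists with at least 5 such genes, ordered by list median; filled points are called, open points are not, black bars are list medians and the dashed line is the median of all 10265 genes (0.06). Metallothioneins (median 3.56) and mitotic genes (1.15) lie to the right and androgen-induced targets (-0.53) to the left. In the serpin and NF-kappa-B lists 2 and 3 members passed the filter on dim values only through the silenced R1881 arrays. The mitosis, glycolysis, immediate-early and luminal lists held 1 such member each.

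The same silencing was measured without androgen on 6 other arrays, which share none with the R1881 comparison. There 3151 genes were called higher (30.7%) and 2566 lower (25.0%). This balance, too, turned with the scaling, to 2761 higher and 2967 lower on arrays shifted to the same median. With the GAPDH 3-prime minus 5-prime difference as a covariate, added after seeing the data, 1899 genes were higher and 2042 lower in vehicle. Across the 10265 genes the changes in R1881 and in vehicle correlated at Pearson r = 0.705 (Spearman rho 0.719), a description over genes that share arrays, probe sets and background estimates. In both treatments 4231 genes were called, 3956 with changes of the same sign and 275 with changes of opposite sign, which is 69.8% of the calls in R1881 and 74.0% of those in vehicle. Of the 689 genes at least 2-fold higher in R1881, 585 were called higher, 12 lower and 92 not called in vehicle. Of the 503 at least 2-fold lower, 397 were called lower, 11 higher and 95 not called. GPNMB, TIPRL, CERS6 (-2.77 ± 0.11 in vehicle), STK39 (-2.26 ± 0.10), MT2A (3.07 ± 0.09) and SMARCA5 (1.89 ± 0.08) were among those that moved in both.

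**Figure D4:**
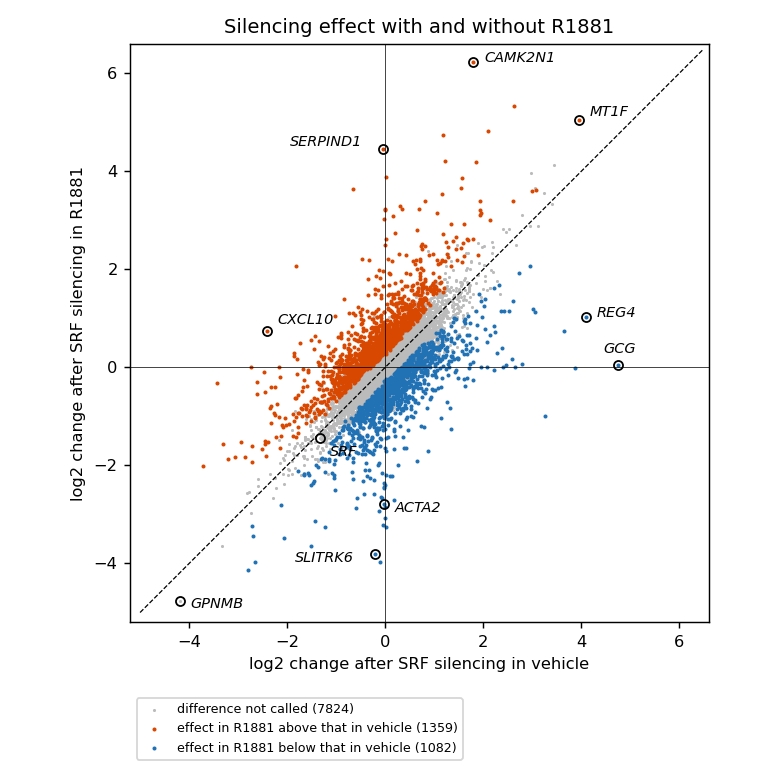
Log2 change after SRF silencing in R1881 (vertical axis) against that in vehicle (horizontal axis) for 10265 genes; coloured points are genes whose effects were called different, 1359 with the effect in R1881 above that in vehicle (orange) and 1082 below (blue), and the dashed line marks equal changes. GPNMB lies low in both treatments, SERPIND1 and ACTA2 lie near 0 on the vehicle axis, and GCG near 0 on the R1881 axis.

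The silencing effect itself was called different between R1881 and vehicle for 2441 genes, 1359 with a higher value in R1881 (13.2%) and 1082 with a lower one (10.5%). Without the third silenced R1881 array the counts were 1094 and 1116. The highest difference was that of SERPIND1, whose level was 2.22 ± 0.13 and 2.18 ± 0.08 in vehicle with control and SRF siRNA, and 2.29 ± 0.05 and 6.74 ± 0.18 in R1881. The difference of effects was 4.49 ± 0.14. Only the silenced R1881 arrays stood above background, and SERPIND1 passed the filter only through them. The same held for at least SERPINA3 and CCL20 among the genes that follow. For these genes a high value on the silenced R1881 arrays was a condition for being tested. CAMK2N1 had 10.76 ± 0.14 and 12.56 ± 0.04 in vehicle, with a difference of 4.42 ± 0.16. Next were the serpins SERPINE2 (4.29 ± 0.43) and SERPINA3 (3.21 ± 0.30), the chemokines CCL20 (3.22 ± 0.37) and CXCL10 (3.15 ± 0.14), the metalloproteinase MMP16 (3.57 ± 0.25), and SERHL2 (3.88 ± 0.28), ZPLD1 (3.88 ± 0.24) and NBL1 (3.05 ± 0.28). The interferon-induced chemokine CXCL10 rose in R1881 (0.74 ± 0.10) and fell in vehicle (-2.41 ± 0.10), as did ZPLD1 (2.06 ± 0.17 and -1.82 ± 0.17).

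At the other end stood CSGALNACT1, an enzyme of chondroitin sulfate synthesis, with levels of 5.09 ± 0.58 and 8.35 ± 0.15 in vehicle and 10.37 ± 0.02 and 9.38 ± 0.04 in R1881, with control and SRF siRNA in that order. It rose with silencing in vehicle and fell in R1881, a difference of -4.25 ± 0.30 (limma adjusted p = 1.63e-06). LINC00844 (-3.86 ± 0.18), SLITRK6 (-3.60 ± 0.13), SLC26A3 (-3.28 ± 0.14), GBP1 (-3.16 ± 0.20), DHRS2 (-3.05 ± 0.31), MMP10 (-2.88 ± 0.36) and SDK1 (-2.84 ± 0.13) fell in R1881 and were not called in vehicle, where LINC00844, SLC26A3, GBP1, DHRS2, MMP10 and SDK1 lay near background with both siRNAs. REG4 (-3.07 ± 0.18) and CCDC83 (-2.89 ± 0.28) were called higher in both treatments and rose more in vehicle. In R1881 CCDC83 stayed under 4, at 3.05 ± 0.23 and 3.80 ± 0.45, and the R1881 calls of both genes were lost with values under 4 set to 4.

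Gene lists differed in how the silencing effect compared between treatments. The list counts here and in the next paragraph are to be read against the shares over all genes. Of all 10265 genes, 13.2% had a silencing effect called higher in R1881 than in vehicle and 10.5% had one called lower. In vehicle 30.7% of all genes rose and 25.0% fell. Of the ER translocation and coat genes, 0 of 51 genes had a silencing effect called higher in R1881 than in vehicle and 34 had one called lower. In vehicle 14 of these ER genes rose and 13 fell (median 0.01), near the shares over all genes. Of the ER folding genes, 1 of 35 genes had a silencing effect called higher in R1881 than in vehicle and 20 had one called lower (median -0.13 in vehicle). Among interferon genes the difference ran the other way: 29 of 39 genes had a silencing effect called higher in R1881 than in vehicle and 2 had one called lower, and in vehicle 5 rose and 22 fell (median -0.41). For the SRF-MRTF actin list, 4 of 26 genes had a silencing effect called higher in R1881 than in vehicle, near the share over all genes. In the same list 9 had one called lower. In vehicle 4 rose and 11 fell of these actin genes (median -0.14).

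For androgen-repressed genes, 14 of 20 genes had a silencing effect called higher in R1881 than in vehicle and 4 had one called lower, and for androgen-induced ones 13 and 15 of 49. Mitotic genes mostly rose in both treatments. Of the 37 that passed the filter without the silenced vehicle arrays, 34 were called higher in vehicle and 1 lower. The other 14 of the 51 passed only through those arrays, so no count of differences is given. All 9 genes of the metallothionein list also rose in both treatments (median 2.99 in vehicle). Of 26 gut and endocrine genes on the array, 19 were too dim to be tested, and GCG, REG4 and BDNF would not have passed the filter without the silenced vehicle arrays, so no count is given for vehicle. The glucagon gene GCG changed by 4.74 ± 0.27 in vehicle, against 0.04 ± 0.27 in R1881.

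**Figure D5:**
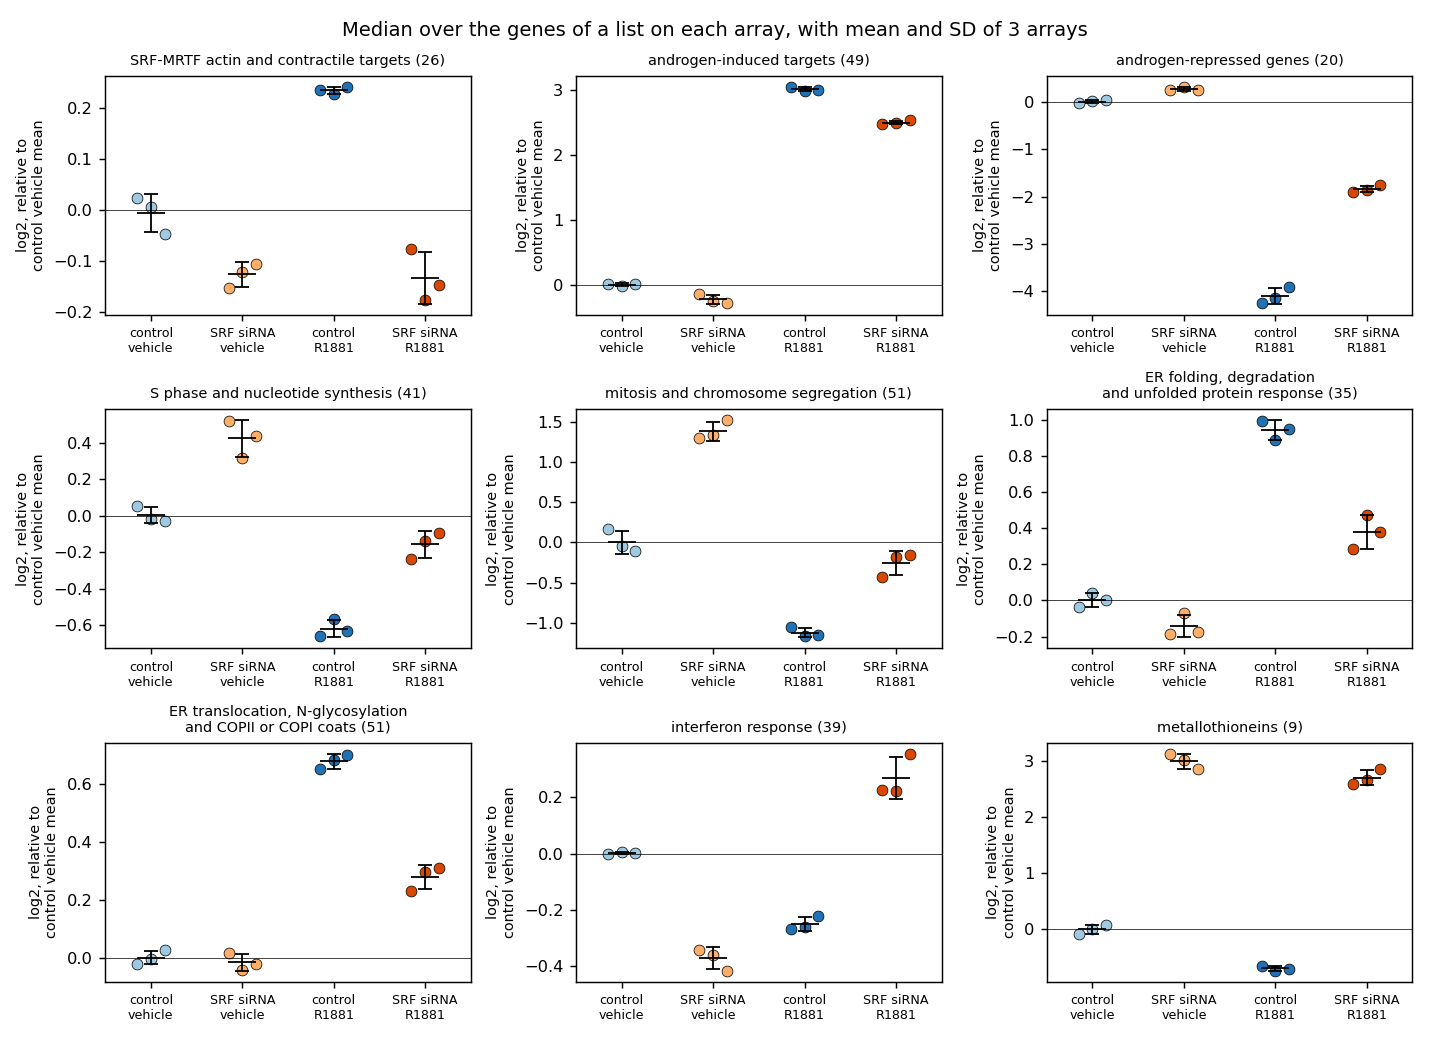
Median over the genes of a list of the log2 signal relative to each gene's control vehicle mean (vertical axis), on each of the 12 arrays, for 9 lists; points are arrays and bars the mean and SD of 3 arrays. For androgen-repressed genes the control R1881 arrays stood at -4.10 ± 0.17 and the silenced R1881 arrays at -1.84 ± 0.07; for ER translocation and coat genes they stood at 0.68 ± 0.03 and 0.28 ± 0.04, and both vehicle groups near 0. The gap between such medians is not the median change per gene, which was 0.70 for androgen-repressed genes and -0.40 for ER translocation and coat genes.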

How the data were processed

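RNA of LNCaP cells was measured on 12 expression arrays, 3 in each of 4 groups. The deposited values are log2 signals per probe set, made with GCRMA per the submitters' processing notes (version not given in the sources used here); GCRMA estimates background, so folds against dim signals are uncertain. Each group has only 3 arrays, which limits the precision. Symbols came from the platform table, updated through gene IDs. A probe set needed log2 above 4 on 3 or more arrays. All 12 arrays entered 1 linear model with a mean per group, fitted with limma 3.58.1 in R 4.3.3 (lmFit, eBayes) and tested on simulated data. No further normalization was applied. Lists (32, with 1006 genes, 897 on the array and 716 tested) are given by counts and medians, with no set test. The genes and lists were chosen with earlier results of these data known. SAP30 was taken out of the SRF cofactor list after the first fit, as it is no SRF cofactor. Named genes were the 15 largest called changes each way without overlap, the 12 largest each way with both means above 7, up to 4 per list, the 10 largest differences of effects each way, and SRF, MRTFA, MRTFB and KLK3. A named gene that is withheld is not reported here. Alternatives covered filter, floor, probe set choice, scaling, variance model, replicate block, threshold and each array left out; a GAPDH 3-prime covariate was added after seeing the data. Promoter windows came from RefSeq (GRCh38.p14), with several per gene where start sites differ. Figures used matplotlib 3.10.9.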

Additional observations from a re-analysis of the deposited data

Results flagged for a closer look

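The silencing effect of SRF siRNA differed between R1881 and vehicle for 2441 of 10265 genes in the limma interaction contrast. The values here are those differences (log2 change in R1881 minus log2 change in vehicle) for the named genes that passed that test and differed at least 2-fold. A positive value means a higher change in R1881. No explanation was tested.

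Among cytoskeletal, adhesion and junction genes the differences were ACTA2 -2.77, CCN1 -1.44, CNN2 -1.14, ZYX -1.18, CLDN8 -2.03, CGN 1.01, NRP1 1.5 and PALMD -1.70. For the mesenchymal markers the differences were SNAI2 2.55, FN1 1.79 and TWIST1 1.15. Genes of growth control and the immediate-early class gave MYC 2.54, IER5 1.36, JUNB 1.20 and ID1 1.49. Cell cycle genes gave RRM2 2.99, TYMS 2.59, UHRF1 1.47, NUSAP1 2.34, PTTG1 2.29, PBK 2.12, BUB1B 2.36 and BIRC5 1.18, and the p53 target DDB2 1.14.

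Androgen-repressed or androgen-conjugating genes gave CAMK2N1 4.42, MMP16 3.57, LRRN1 2.99 and UGT2B17 1.52. The androgen-induced F5 differed by -2.80. Serpins gave SERPIND1 4.49, SERPINE2 4.29 and SERPINA3 3.21. Interferon and NF-kappa-B genes gave GBP1 -3.16, GBP2 -2.04, IFI27 1.65, IFITM1 1.67, CXCL10 3.15, CCL20 3.22, CXCL8 2.61 and RELB 2.15. Of these serpin, interferon and NF-kappa-B genes, SERPIND1, SERPINA3, CCL20, CXCL8 and RELB passed the filter only through the silenced R1881 arrays, where they were high. GBP1 would not have passed it without the control R1881 arrays. Genes of the ER, of lipid control and of metal binding gave SDF2L1 -1.41, SEC24D -1.57, DNAJB9 -1.19, SCAP -1.18 and MT1F 1.10.

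The other named genes with a lower change in R1881 were AQP11 -2.12, CCDC83 -2.89, CRISP3 -1.32, CSGALNACT1 -4.25, DHRS2 -3.05, LINC00161 -1.41, LINC00844 -3.86, MMP10 -2.88, NAT1 -1.62, REG4 -3.07, SDK1 -2.84, SLC26A3 -3.28, SLITRK6 -3.60 and TIPRL -1.34. Those with a higher change in R1881 were ADRA2A 2.73, NBL1 3.05, PRAC1 2.10, SERHL2 3.88, TFF1 2.71 and ZPLD1 3.88.

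Outside the genes described, 2850 probe sets that passed the filter on dim signal had no platform gene symbol or several. Of these 270 were called at least 2-fold after silencing in R1881, 157 higher and 113 lower. They were named after no gene and enter no count of genes.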

How the results depend on the processing

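SRF siRNA in R1881 gave 6058 called genes. Testing all passing probe sets as separate features gave 10178 calls (5543 higher and 4635 lower, 1135 and 1091 of them at least 2-fold) and 9437 in vehicle, since more features were tested. At an adjusted p under 0.01 the difference of effects was called for 1367 genes in place of 2441. Leaving out each array in turn gave 5502 to 6106 calls in R1881 (3036 to 3493 higher and 2334 to 2636 lower, 639 to 733 and 474 to 548 at least 2-fold), 5112 to 5790 in vehicle and 2023 to 2338 for the difference. The SRF change ran from -1.51 to -1.34, the GAPDH difference from -0.052 to 0.085 and the share of 2-fold lower genes with a CArG box from 2.77% to 3.12%. With the replicate block, 3371 genes were higher and 2550 lower, and 2200 differences were called. No pairing by replicate number was used in the main fit. Deviations of same-numbered arrays correlated at -0.214 to 0.0994. Those of differently numbered arrays reached 0.2067, between control vehicle array 1 and silenced vehicle array 3. With the GAPDH covariate, added after seeing the data, 3410 genes were higher and 2635 lower in R1881, but in vehicle 1899 and 2042, in place of 3151 and 2566, and 1911 differences were called (1187 higher and 724 lower in R1881, in place of 1359 and 1082). On arrays shifted to the same median, the differences were 1220 and 1242. Of 152 called named genes, 141 kept call and direction under every alternative run. ELK4 reversed, to -0.14 on its most variable probe set (limma adjusted p = 0.379); the cause was not tested. The other 10 lost the call at least once: HMGCS1, PDK1 and RPL14 on the most variable probe set, PSMA1 on arrays shifted to the same median, MVD, PSMC3 and TWIST1 at the stricter threshold and with an R1881 array left out (MVD without control array 1 or 2 or silenced array 2 or 3, -0.503 to -0.455, and with no filter; PSMC3 without silenced array 3, -0.285; TWIST1 without control array 3, 0.335), and CCDC83, COL3A1 and REG4 with values under 4 set to 4, where levels near background carry no order. Without the third silenced R1881 array, 20 interferon genes rose and 6 fell, 38 of all 51 mitotic genes rose and 3 fell, and 37 ER translocation and coat genes fell and 3 rose. Metallothionein, mitotic, ER, androgen and interferon list medians kept their sign under every alternative run.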
